A study of Mus musculus with 9 samples.

Results

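Small extracellular vesicles (smEVs) of Bbs4-/- cells were compared with those of Bbs6-/- cells across their miRNAs. Members were all miRNAs whose counts over the 6 libraries of these lines summed to 6 or more, and 321 of the 1164 miRNAs in the deposited table met this. A further 123 had 1 to 5 counts in all and 720 had none, while 201 of the 321 had a count in every library. At the limit itself, 13 miRNAs had exactly 6 counts and were kept, and 9 had 5 counts and were not.

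The cells were immortalised mouse kidney medullary (KM) lines, 1 line for each genotype, Bbs4-/- and Bbs6-/-, grown to confluency and serum starved for 24 h. Small EVs were purified from the supernatant by differential centrifugation, and their small RNA was sequenced from 3 preparations per line. Because each genotype was 1 line, genotype and line cannot be told apart, and whether a line was clonal is not given in the sources used here. A difference between libraries of these lines therefore has the spread between preparations of 1 line as its error. A control line without a knockout (WT) was sequenced in 3 further libraries and enters only where its level is named.

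Bbs4 is a subunit of the BBSome, the coat-like complex that carries membrane proteins out of and into the primary cilium. Bbs6, also called MKKS, is a chaperonin-like protein that helps to assemble the BBSome and is not a part of the finished complex. A miRNA is cut from a hairpin, whose 5p or 3p arm is kept, and pairs with target transcripts mainly through its seed, bases 2 to 8. Vesicles carry miRNAs out of the cell, so a level measured in smEVs reflects both how much the cell made and how much was loaded, and the files hold no matched cellular miRNA.

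The sequences below are of some called miRNAs and of rows set beside them in the text, written 5′ to 3′ with the seed in capitals. Not every called miRNA is shown, and miR-335, miR-676 and miR-298 are among those left out. The sequences were taken from RefSeq with the GRCm38.p6 assembly, where 276 of the 321 miRNAs (86.0%) were matched by name. A row without a locus number does not say which arm was counted. Some arms of called miRNAs, such as miR-34c-5p, were missing from the sequences used and are not printed. The rows with a locus number, 21 in all, each matched 1 arm of 1 locus. The miR-34 and miR-181 sets are shown for their shared seeds, since 4 of the 6 miRNAs called at least 4-fold lower in Bbs4-/- smEVs were among them.
miR-34a-5p: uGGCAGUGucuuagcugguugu
miR-34b-5p: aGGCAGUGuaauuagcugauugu
miR-34b-3p: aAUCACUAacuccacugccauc
miR-34c-3p: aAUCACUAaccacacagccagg
miR-181a-5p: aACAUUCAacgcugucggugagu
miR-181b-5p: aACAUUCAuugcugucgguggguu
miR-181c-5p: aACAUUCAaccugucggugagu
miR-181d-5p: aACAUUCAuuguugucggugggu

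The next set holds pairs of arms from 1 hairpin family that were counted in separate rows, of which only some were called.
miR-365-2-5p: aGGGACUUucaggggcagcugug
miR-365-3p: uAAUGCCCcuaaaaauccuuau
miR-194-2-3p: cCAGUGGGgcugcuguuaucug
miR-194-5p: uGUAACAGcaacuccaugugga
let-7a-5p: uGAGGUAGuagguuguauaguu
let-7a-1-3p: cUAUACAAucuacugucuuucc
let-7c-2-3p: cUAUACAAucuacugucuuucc

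The last set is of some of the abundant miRNAs that were called, each beside an uncalled miRNA with the same seed where 1 is named in the text.
let-7g-5p: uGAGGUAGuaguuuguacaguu
miR-98-5p: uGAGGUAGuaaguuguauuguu
miR-25-3p: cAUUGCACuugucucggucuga
miR-92a-3p: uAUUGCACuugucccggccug
miR-29a-3p: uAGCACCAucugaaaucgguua
miR-29b-3p: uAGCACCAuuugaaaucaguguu
miR-30a-5p: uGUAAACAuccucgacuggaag
miR-30c-5p: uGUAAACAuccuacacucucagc
miR-484: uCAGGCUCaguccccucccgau

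The total miRNA count was 176935 to 457163 in the Bbs4-/- libraries and 192654 to 423784 in the Bbs6-/- libraries. Levels are counts scaled to a common library size (CPM) with TMM over these 6 libraries, with factors of 0.813 to 1.19. A count of 3, the highest true mean that an observed 0 was taken to allow, stood for 6.58 to 15.5 CPM, a limit that covers counting error only. The Bbs6-/- library numbered 2 stood apart from the other two of its line. Of 70 abundant miRNAs, those with a mean of at least 1000 CPM, 7 lay more than 2-fold from the line mates in this library (let-7b, let-7c, miR-125b, miR-135b, miR-196b and miR-200c lower, miR-6240 higher), against 0 to 2 in any other library. Counts of same-line libraries differed by more than sampling allows (chi-square divided by its degrees of freedom, 10.002 to 78.7), so none was taken for a repeat of another. Where a call of a named miRNA or family changes without library 2, that value is given beside it.

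Between the smEVs of the mutants, 21 of 321 miRNAs differed at an adjusted p under 0.1 (6.54%, edgeR's quasi-likelihood test). In Bbs4-/- smEVs, 9 were higher (2.8%) and 12 lower (3.74%). The calls are described on either side of a 4-fold change, a cut that was set and not found in the data. The median standard error (log2) was 1.04 below 1000 CPM and 0.23 at or above it. All 14 called miRNAs below 1000 CPM changed by at least 2-fold, so smaller changes of rarer miRNAs could be missed. Of the called miRNAs, 10, all with a mean under 1000 CPM, changed by at least 4-fold (3.12%), 4 of them higher (1.25%) and 6 lower (1.87%), led by miR-34c and the miR-181c/d pair on the lower side and by miR-365-2 on the higher side. The other 11 changed by less, and 7 of these were abundant miRNAs such as let-7g, miR-25 and miR-29a. At an unadjusted p under 0.05, 49 miRNAs (15.3%) differed. Every called miRNA had libraries that did not overlap between the lines, as did 63 of all 321 (19.6%), of which 31 were higher (9.66%) and 32 lower (9.97%).

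**Figure D1:**
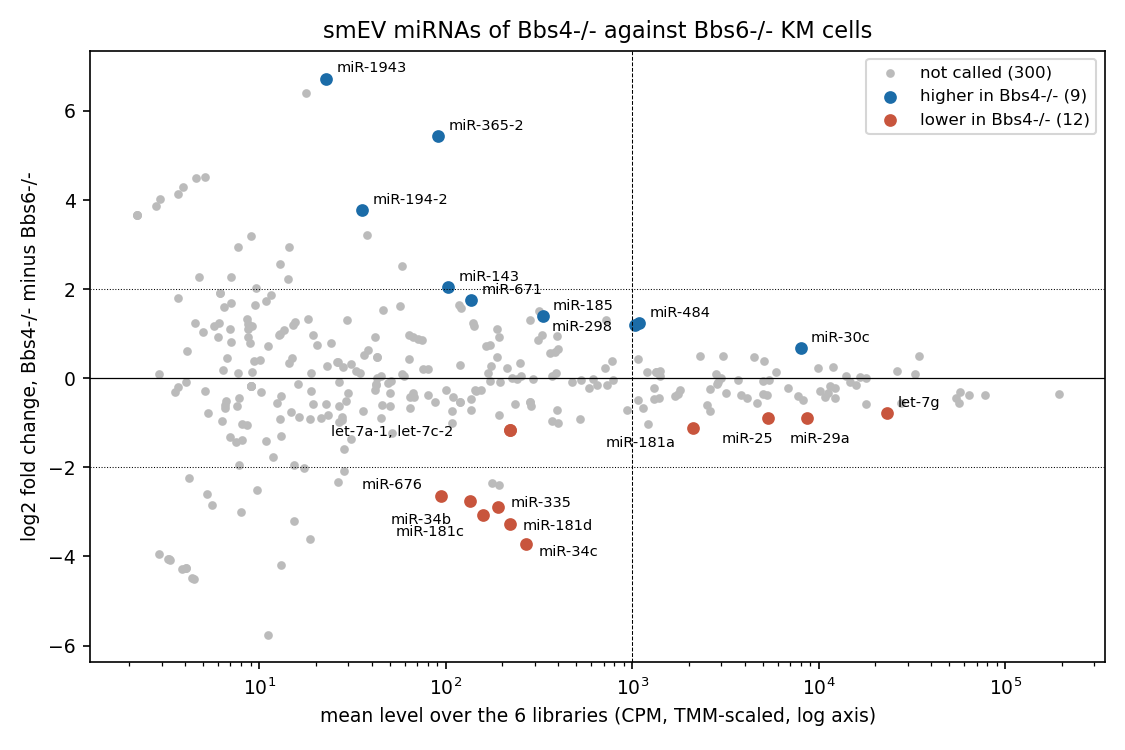
Each point is 1 of the 321 miRNAs, with its mean level over the 6 libraries (CPM, log axis) against its log2 fold change, Bbs4-/- minus Bbs6-/-. Blue points are the 9 miRNAs called higher in Bbs4-/- and red points the 12 called lower, the dotted lines mark a log2 change of 2 either way, and the dashed line marks 1000 CPM. To the right of the dashed line no change reached 4-fold.

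Of the called miRNAs, miR-34c had the most negative log2 fold change. The miR-34 miRNAs are known as targets of p53, and miR-34b and miR-34c, with the related miR-449, as regulators of multiciliated cells. miR-34c was at 25.7, 67.1 and 21.9 CPM in the Bbs4-/- libraries, and at 171, 675 and 647 CPM in the Bbs6-/- libraries, where 171 CPM belonged to library 2. The highest Bbs4-/- value was below the lowest Bbs6-/- value. The level was 13.1-fold lower in Bbs4-/- (log2 fold change -3.71, standard error 0.61, adjusted p = 0.00688, edgeR).

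miR-34b, whose gene lies 528 bases from that of miR-34c, was lower as well. The pair sits on the minus strand within an intron of Btg4, which is on the opposite strand (GRCm38, miR-34c at chr9:51103034-51103110 and miR-34b at chr9:51103562-51103645). In Bbs4-/- smEVs miR-34b was at 20.5, 39.5 and 41.7 CPM, and in Bbs6-/- smEVs at 144.85, 295 and 264 CPM. No library of one line reached the range of the other, and the log2 fold change was -2.75 (standard error 0.49, adjusted p = 0.0104, edgeR). The 3p arms of miR-34b and miR-34c share the seed AUCACUA, and the 5p arm of miR-34b has the seed GGCAGUG of miR-34a. The 5p arm of miR-34c was missing from the sequences used, so its seed was not compared.

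miR-34a, encoded elsewhere, differed less. It was at 267, 205 and 320 CPM in Bbs4-/- smEVs and at 517, 490 and 592 CPM in Bbs6-/- smEVs. These ranges did not overlap, but the log2 fold change of -1.01 missed the threshold (adjusted p = 0.102, edgeR), and it passed without Bbs6-/- library 2 (adjusted p = 0.0495). The 3 members of the family with 6 counts or more all had negative log2 fold changes, with a median of -2.75 beside -0.08 over all 321 miRNAs. miR-449a, miR-449b and miR-449c had no count in these libraries.

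The miR-181 family, known from the control of lymphocyte development and present in many tissues, had 3 called members of 5 tested, all lower in Bbs4-/-, where 3.74% of all 321 were called lower. miR-181d was at 71.9, 39.5 and 17.6 CPM in Bbs4-/- smEVs against 740, 199 and 261 CPM in Bbs6-/- smEVs. The ranges lay apart, the highest value was that of Bbs6-/- library 2, and the level was 9.62-fold lower (log2 fold change -3.27, standard error 0.63, adjusted p = 0.0106, edgeR). Without Bbs6-/- library 2 the log2 fold change was -2.29 (adjusted p = 0.00352). Leaving out Bbs4-/- library 2 ended the call, with an adjusted p of 0.114 at a log2 fold change of -3.05.

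miR-181c lies 157 bases from miR-181d in an intron of Nanos3 on the same strand (GRCm38, chr8:84178873-84178961 and chr8:84178716-84178787). Its Bbs4-/- values were 10.3, 31.6 and 52.7 CPM and its Bbs6-/- values 372, 318 and 163 CPM. Again the ranges did not overlap, with an 8.42-fold lower level in Bbs4-/- (log2 fold change -3.07, standard error 0.57, adjusted p = 0.0104, edgeR). Without Bbs4-/- library 3 the log2 fold change was -3.68.

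The most abundant member, miR-181a, showed a smaller difference with a narrow spread. It was at 1191, 1539 and 1286 CPM in Bbs4-/- smEVs and at 2499, 2781 and 3425 CPM in Bbs6-/- smEVs. All Bbs4-/- libraries were lower, and the level was 2.17-fold lower (log2 fold change -1.12, standard error 0.23, adjusted p = 0.0114, edgeR). miR-181b, encoded next to miR-181a at both of its loci and with the same seed ACAUUCA, had a log2 fold change of -0.45 (95% interval -0.97 to 0.07, adjusted p = 0.391) with libraries that did not overlap. The median of the 5 members was -1.12.

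miR-335, from an intron of the imprinted gene Mest (GRCm38, chr6:30741299-30741396), was at 25.7, 51.3 and 54.9 CPM in Bbs4-/- smEVs and at 605, 199 and 209 CPM in Bbs6-/- smEVs. Library 2 was again the highest of Bbs6-/-, and no value of one line fell in the range of the other. The level was 7.41-fold lower in Bbs4-/- (log2 fold change -2.89, standard error 0.54, adjusted p = 0.0104, edgeR). Without library 2 the log2 fold change was smaller, at -2.01 (adjusted p = 0.00333).

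miR-676, from an intron of Eda on the X chromosome, was at 20.5, 19.7 and 35.1 CPM against 114, 225 and 148 CPM. The lines did not overlap here either, and the level in Bbs4-/- was 6.21-fold lower (log2 fold change -2.64, standard error 0.53, adjusted p = 0.0114, edgeR). The counts behind the low values of these 6 miRNAs were small, from 2 to 25 per Bbs4-/- library.

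**Figure D2:**
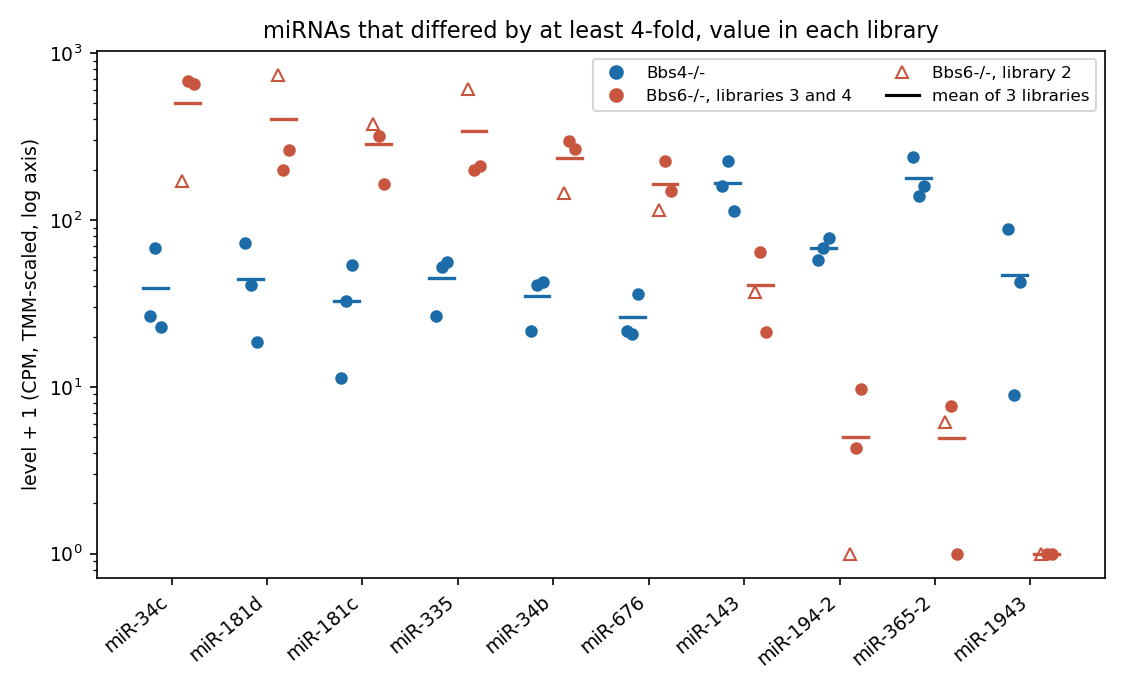
The level (CPM plus 1, log axis) of the 10 called miRNAs that differed by at least 4-fold is shown in each of the 6 libraries. Blue points are Bbs4-/- libraries, red points Bbs6-/- libraries 3 and 4, open triangles Bbs6-/- library 2, and bars the mean of 3 libraries. Blue and red values do not overlap for any of them, and miR-1943 sits at 0 CPM in all Bbs6-/- libraries.

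On the higher side, miR-365-2 was nearly confined to Bbs4-/- smEVs among these lines, with 46, 35 and 72 counts (236, 138 and 158 CPM) against 1, 2 and 0 counts in Bbs6-/-. The ratio of the summed counts, scaled for library size, was 47.4 (95% interval 15.9 to 232, for counting error only), with an adjusted p of 0.00333 (edgeR). This row is the 5p arm of the second miR-365 locus, on chromosome 11 between annotated genes. The row of miR-365 without a locus number matched the 3p arm, which both loci share. That arm was at 61.6, 23.7 and 85.6 CPM in Bbs4-/- and at 103, 59.6 and 69.7 CPM in Bbs6-/-, with overlapping ranges and a log2 fold change of -0.41 (95% interval -1.70 to 0.87, adjusted p = 0.811, edgeR). miR-193a, of the same family list, had -0.10 (adjusted p = 0.973). The difference between the arms' changes was not tested.

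A like pair was seen for miR-194, which with miR-192 is known from gut, liver and kidney epithelium. The 3p arm of its second locus, miR-194-2, had 11, 17 and 35 counts (56.5, 67.1 and 76.8 CPM) in Bbs4-/- and 0, 1 and 3 counts in Bbs6-/-. The libraries did not overlap, and the scaled ratio of summed counts was 14.6 (95% interval 5.44 to 55.4, for counting error only; adjusted p = 0.0371, edgeR). The call was lost without Bbs4-/- library 2 or 3 or Bbs6-/- library 3 (adjusted p = 0.116 to 0.129), and the fitted log2 fold change went from 3.78 to 4.82 without Bbs6-/- library 4. The 5p arm shared by both loci, counted as miR-194, was at 97.5, 111 and 134 CPM against 212, 139 and 128 CPM. These ranges overlapped, with a log2 fold change of -0.47 (95% interval -1.38 to 0.44, adjusted p = 0.645). miR-192, 201 bases from miR-194-2 on chromosome 19, had -0.54 (adjusted p = 0.707) and miR-215 had -0.32 (adjusted p = 0.973).

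miR-143, known from smooth muscle and other mesenchymal cells, was at 159, 225 and 112 CPM in Bbs4-/- and at 36.2, 62.9 and 20.3 CPM in Bbs6-/-. It was 4.11-fold higher with no overlap (log2 fold change 2.04, standard error 0.55, adjusted p = 0.0600, edgeR). The call was lost without Bbs4-/- library 1 or 2 or Bbs6-/- library 4 (adjusted p = 0.180 to 0.232). The summed level of the mesenchymal markers tested (miR-143, miR-199a and miR-199b, 3 of a list of 5) was 121 to 257 CPM in Bbs4-/- and 20.3 to 76.2 CPM in Bbs6-/-, nearly all of it miR-143. The rows of miR-199a and miR-199b held the same count in every library, so they are 1 measurement that this sum holds 2 times. Of the other defining markers, miR-145a and miR-214 had no count, and miR-199a had 8 counts in Bbs4-/- and 2 in Bbs6-/-. Their part in the result was not tested.

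miR-1943, from an intron of Tmem184b on chromosome 15, had 17, 2 and 19 counts in Bbs4-/- and none in Bbs6-/-. Against the limit of 3 counts in each Bbs6-/- library it was at least 4.01-fold higher (adjusted p = 0.0618, edgeR). The Bbs4-/- library with 2 counts was itself under that limit. Leaving out any library other than those numbered 2 ended the call (adjusted p = 0.104 to 0.366).

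Among the abundant miRNAs the differences were small, and the spread was small enough to see some of them. All 70 had a 95% interval that stayed within 4-fold either way, and 48 had one within 2-fold. Of the 70, 7 were called (10%), 3 higher (4.29%) and 4 lower (5.71%), beside 14 of the 251 less abundant miRNAs (5.58%). The libraries did not overlap for 24 of the 70 (34.3%) and for 39 of the 251 (15.5%). The median log2 fold change of the abundant miRNAs was -0.24, with 46 negative and 24 positive, and it was 0.00 when libraries were scaled by total count, so small differences depend on the scaling.

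let-7g was the most abundant called miRNA, with 17675, 14185 and 19149 CPM in Bbs4-/- and 25390.1, 28590 and 33827 CPM in Bbs6-/-. Every Bbs4-/- library was lower, and the level was 1.72-fold lower (log2 fold change -0.78, standard error 0.20, adjusted p = 0.0407, edgeR). let-7 miRNAs are known to hold back growth and stem cell programmes, and their maturation is blocked by Lin28. The call was lost when any of 4 libraries was left out (Bbs4-/- 1 or 2, Bbs6-/- 3 or 4), with log2 fold changes of -0.51 to -0.81 and adjusted p of 0.134 to 0.255.

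The other abundant let-7 miRNAs, which share the seed GAGGUAG, were not called. let-7f, let-7c, let-7a and let-7b had log2 fold changes of -0.38, -0.56, -0.44 and -0.55, let-7d and let-7e had -0.08 and -0.32, and let-7i and miR-98 had 0.16 and 0.50. In let-7a, the Bbs6-/- values were 41205 CPM in library 2 and 67562 and 78558 CPM in the others, around the Bbs4-/- values of 48811, 35826 and 53481 CPM. Without library 2, let-7a, let-7b and let-7c were called lower (adjusted p = 0.0474, 0.00940 and 0.00940, edgeR), and let-7i and miR-98 higher (adjusted p = 0.0559 and 0.00741). Members of this family then lay on both sides, with log2 fold changes of -0.70 for let-7b and 0.79 for miR-98.

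A pair of less abundant let-7 rows was also called. let-7a-1 and let-7c-2 held the same count in every library, and their 3p arms have an identical sequence, so they are 1 measurement. Their level was 144, 122 and 144.9 CPM in Bbs4-/- and 285, 265 and 371 CPM in Bbs6-/-. The lines did not overlap (log2 fold change -1.16, standard error 0.36, adjusted p = 0.0981, edgeR), but the call was the weakest of all and was lost in 11 of 15 alternatives for let-7a-1. Over the 13 let-7 rows tested, 3 were called lower and 0 higher, with a median of -0.38.

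miR-25, encoded in the Mcm7 gene beside miR-93 and miR-106b, was at 4107, 3264 and 3869 CPM in Bbs4-/- and at 6627, 6387 and 7691 CPM in Bbs6-/-. The ranges did not overlap and the level was 1.84-fold lower (log2 fold change -0.88, standard error 0.20, adjusted p = 0.0223, edgeR). Its neighbours had log2 fold changes of -0.49 (miR-93, adjusted p = 0.188, libraries apart) and -0.48 (miR-106b, adjusted p = 0.425, libraries overlapping). miR-92a, which shares the seed AUUGCAC with miR-25, had -0.15 (95% interval -0.54 to 0.25). miR-25 was not called without Bbs4-/- library 2 (log2 fold change -0.63, adjusted p = 0.221) or without Bbs6-/- library 4 (-0.80, adjusted p = 0.1001).

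miR-29a, known as a repressor of collagen genes, was at 4512, 7156 and 6308 CPM in Bbs4-/- and at 7822, 13052 and 12723 CPM in Bbs6-/-. The ranges came close without overlapping (log2 fold change -0.90, standard error 0.25, adjusted p = 0.0637, edgeR). miR-29b, with the same seed AGCACCA and an origin beside miR-29a, had -1.01 (95% interval -2.06 to 0.04, adjusted p = 0.339). miR-29c, at a mean of 26.2 CPM, had 0.36 (adjusted p = 0.910). With total count scaling the change of miR-29a was -0.62 and missed the threshold (adjusted p = 0.197), and it also missed it without any 1 of 5 libraries (all but Bbs6-/- 2), with adjusted p of 0.114 to 0.329.

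miR-298 and miR-484 were the called abundant miRNAs with the largest rises in Bbs4-/- smEVs. miR-298 comes from the imprinted Gnas region and was at 1571, 1267 and 1470.5 CPM in Bbs4-/- against 605, 596 and 679 CPM in Bbs6-/-. The ranges were far apart relative to their width (log2 fold change 1.19, standard error 0.24, adjusted p = 0.0114, edgeR). miR-296, 457 bases away, was at 282, 470 and 625 CPM against 212, 311 and 398 CPM, with overlap and a log2 fold change of 0.58 (adjusted p = 0.448).

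miR-484, whose gene lies within an exon of Marf1 on the opposite strand, was at 1227, 1579 and 1771 CPM in Bbs4-/- and at 724, 596 and 630 CPM in Bbs6-/-. It was 2.35-fold higher with no overlap (log2 fold change 1.23, standard error 0.25, adjusted p = 0.0114, edgeR). Both miR-298 and miR-484 were called in all 15 alternatives.

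miR-30c, of a family abundant in kidney epithelium, was at 8825, 9153 and 11472 CPM in Bbs4-/- and at 5980.2, 5774 and 6655 CPM in Bbs6-/-. It was 1.6-fold higher with no overlap (log2 fold change 0.68, standard error 0.20, adjusted p = 0.0803, edgeR). The call was lost when Bbs4-/- library 1 or 3 or Bbs6-/- library 3 or 4 was left out (adjusted p = 0.142 to 0.307). miR-30a, with the same seed GUAAACA, was at 38302, 38963 and 43848 CPM against 32239, 26348 and 26645 CPM. Its ranges did not overlap, and its log2 fold change of 0.51 missed the threshold (adjusted p = 0.174), while 7 of 15 alternatives called it. Without Bbs6-/- library 2 it was called higher (log2 fold change 0.78, adjusted p = 0.00083, edgeR). miR-30d and miR-30e had log2 fold changes of 0.01 and -0.06. The 7 rows of the family had a median of 0.12, with 1 called higher and 0 lower, and 2 called higher without Bbs6-/- library 2.

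**Figure D3:**
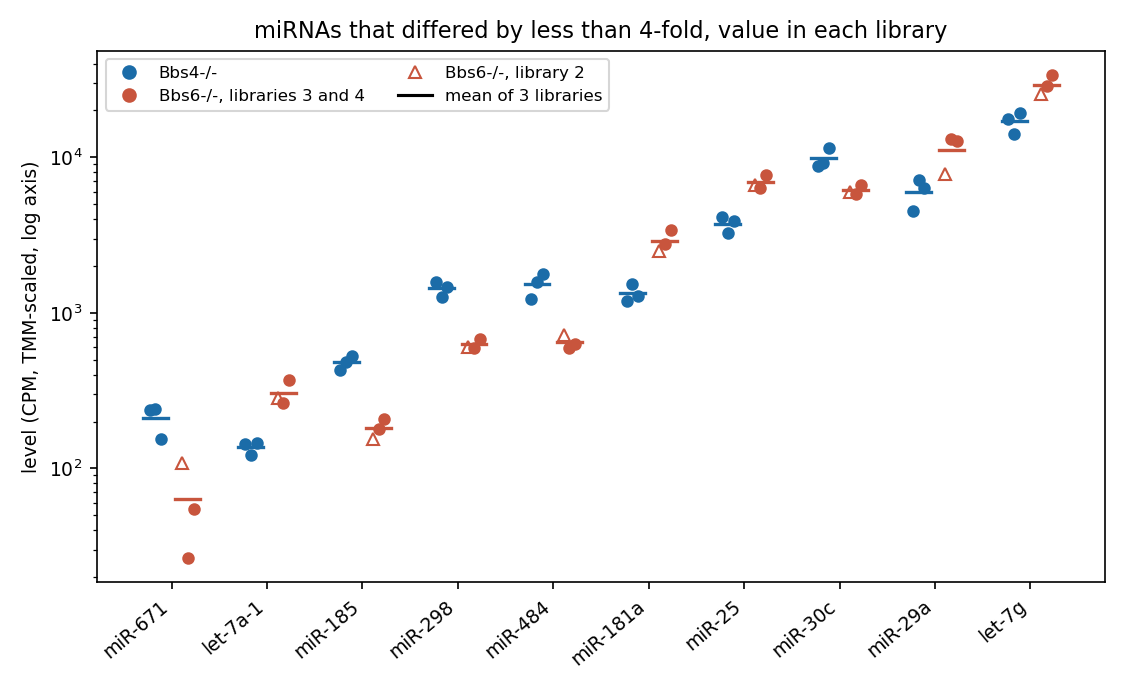
Levels (CPM, log axis) of the called miRNAs that differed by less than 4-fold are plotted for each library, ordered by mean level, with the bar at the mean of 3 libraries. Blue points are Bbs4-/-, red points Bbs6-/- libraries 3 and 4, open triangles Bbs6-/- library 2, and let-7a-1 stands also for let-7c-2. For miR-185, miR-298, miR-484, miR-181a, miR-25, miR-30c and let-7g the triangle lies with or near the red points.

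Of the less abundant miRNAs with smaller changes, miR-185 was at 426, 485 and 527 CPM in Bbs4-/- and at 155, 179 and 209 CPM in Bbs6-/-. It was 2.64-fold higher with a narrow spread in both lines (log2 fold change 1.40, standard error 0.32, adjusted p = 0.0223, edgeR), and missed the threshold without Bbs6-/- library 3 (adjusted p = 0.104). miR-671 was at 236, 241 and 154 CPM against 109, 26.5 and 55.1 CPM. Its ranges did not overlap (log2 fold change 1.75, standard error 0.53, adjusted p = 0.0981, edgeR), and the call was lost in 6 of 15 alternatives, among them the removal of any 1 library other than Bbs6-/- 2, without which it was 2.53 (adjusted p = 0.000836).

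The 10 most abundant miRNAs took 58.4% to 63.8% of the counts of each library. With all 6 libraries none of them was called, and their log2 fold changes lay between -0.56 (let-7c) and 0.51 (miR-30a). Without Bbs6-/- library 2, let-7a, let-7b and let-7c were called lower, and let-7i and miR-30a higher. miR-21a, the most abundant, was at 155360, 169506 and 182814 CPM in Bbs4-/- and at 227812, 200926 and 220258 CPM in Bbs6-/-. These ranges did not overlap, and the log2 fold change was -0.35 (95% interval -0.74 to 0.04, adjusted p = 0.353, edgeR). miR-10a had -0.38 (-0.79 to 0.03), miR-182 had -0.31 (-0.75 to 0.13) and miR-183 had 0.09 (-0.37 to 0.56). The interval of each of these 4 held 0 and stayed within 2-fold either way.

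Kidney epithelial markers were present in both lines. miR-200b, a repressor of the mesenchymal regulators Zeb1 and Zeb2, was at 8127 to 10897 CPM in Bbs4-/- and at 10610 to 11881 CPM in Bbs6-/- (log2 fold change -0.28, adjusted p = 0.469, edgeR). None of the 5 members of the miR-200 family was called, and their median was -0.28. Without Bbs6-/- library 2, miR-200a was called lower (log2 fold change -0.52, adjusted p = 0.0546). miR-200c was at 2634, 2972 and 3117 CPM in Bbs4-/- and at 166, 3539 and 4475 CPM in Bbs6-/-, where library 2 alone was low. Its log2 fold change of 0.09 had an interval of -1.41 to 1.59, and without library 2 it was -0.29 (adjusted p = 0.340). miR-141, from the same cluster, was low in the same library, at 5.17 CPM against 189 and 180 CPM.

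**Figure D4:**
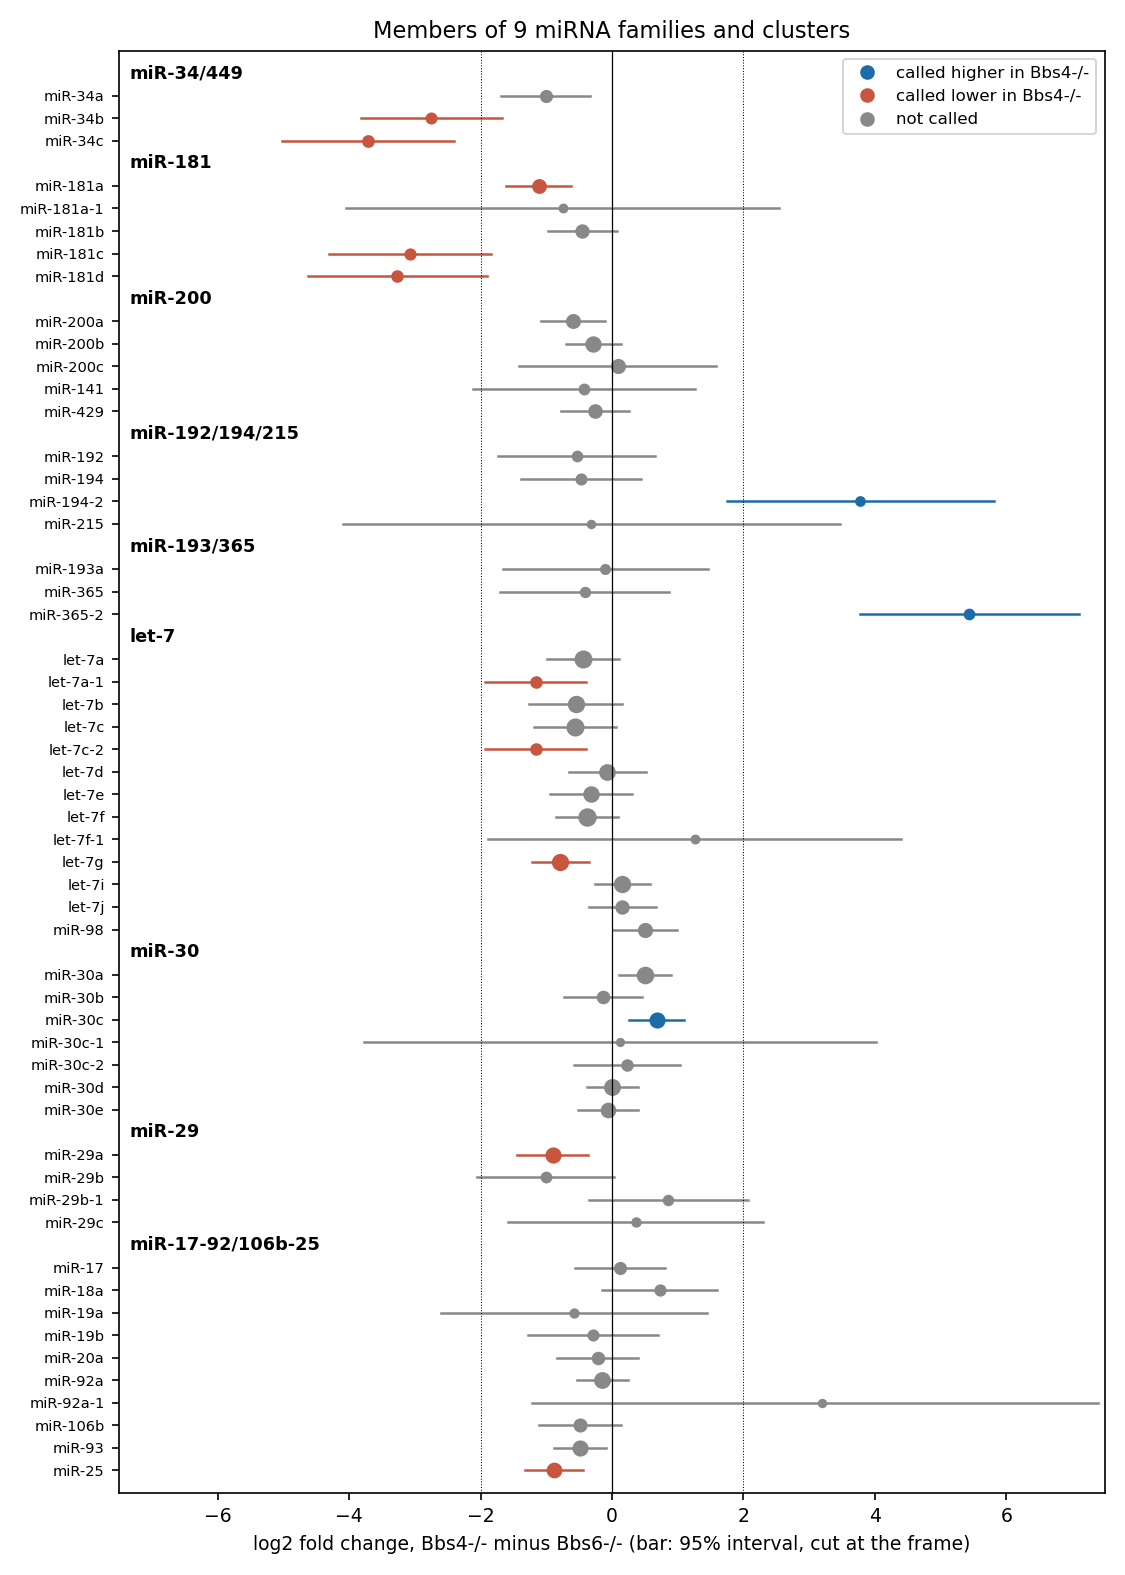
Log2 fold changes (Bbs4-/- minus Bbs6-/-) are given for every tested member of 9 miRNA families and clusters, with 95% intervals cut at the frame. Red marks a call lower in Bbs4-/-, blue a call higher, gray no call, larger points have higher mean levels, and dotted lines mark 4-fold. All members of the miR-34 and miR-181 sets lie left of 0, whereas miR-365-2 and miR-194-2 lie far right of the other rows of their families.

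Markers of other cell types were low or did not differ by the test, apart from miR-143. The blood and endothelial list had 5 members tested of 8 and none called, with a summed level of 134 to 175 CPM in Bbs4-/- and 69.5 to 191 CPM in Bbs6-/-. The muscle list had 2 tested of 6 and none called, and its sum of 1046 to 2243 CPM against 1712 to 2380 CPM was nearly all miR-206, with miR-133b, miR-208a and miR-499 at 0 counts. The liver and neural list had 2 tested of 6, miR-9 and miR-122, with sums of 10.3 to 90.0 CPM against 82.8 to 523 CPM and miR-137 at 0 counts.

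Several miRNAs missed the threshold with large changes and a wide spread in Bbs6-/-. miR-203, an epidermal miRNA, was at 41.1, 63.1 and 68.0 CPM in Bbs4-/- and at 25.9, 404 and 461 CPM in Bbs6-/-, with library 2 as the low value (log2 fold change -2.36, adjusted p = 0.103, edgeR). miR-9, known from neural cells, was at 10.3, 78.9 and 90.0 CPM against 51.7, 450 and 473 CPM, again with library 2 low (log2 fold change -2.40, adjusted p = 0.111). Without library 2 both were called lower, with -2.72 (adjusted p = 2.70e-05) and -2.73 (adjusted p = 0.000347). miR-135b was at 565 to 963 CPM in Bbs4-/- and at 688, 1884 and 2328 CPM in Bbs6-/- (log2 fold change -1.03, adjusted p = 0.187), and was called without library 2 (-1.23, adjusted p = 0.000483).

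Leaving out Bbs6-/- library 2 raised the calls to 64 (19.9%), 37 higher (11.5%) and 27 lower (8.41%), and all 21 calls of the full comparison were among them. Of 68 abundant miRNAs, 24 were then called (35.3%), 12 in each direction. miR-6240 turned from -0.22 (adjusted p = 0.914) to 1.19 (adjusted p = 0.0151). The further calls were not made by this test with all 6 libraries. Leaving out any other library lowered the count, to 15 without Bbs4-/- library 3 and to 13 without each of the other 4.

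The 10 miRNAs that the study relates to Wnt signalling were chosen by it on these libraries, so they are not independent evidence of a direction. Of the 10, 3 were called lower in Bbs4-/- than in Bbs6-/- (miR-34b, miR-34c and miR-181d) and 0 higher, where 3.74% of all 321 were called lower, with a median of -1.69 beside -0.08. Without Bbs6-/- library 2 miR-203 and miR-135b were also called lower, 5 in all. The other 7 were miR-135b, miR-203, miR-200c, miR-141, miR-101a, miR-101c and miR-122. miR-101a and miR-101c held the same counts in every library, with a log2 fold change of -0.53 (adjusted p = 0.783). miR-122, a liver miRNA, had 0, 2 and 0 counts against 6, 22 and 0 counts (adjusted p = 0.339).

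With all 6 libraries, the other families held no call, or 1. The list of the miR-17 and miR-106b clusters had 10 members tested, with miR-25 as its only call and a median of -0.26. No member was called of the list of miR-15 and miR-16 (5 tested, median -0.31), that of miR-23, miR-27 and miR-24 (7 tested, -0.37), that of miR-26 (3 tested, -0.45) or that of miR-148 and miR-152 (3 tested, -0.87). The medians were -0.53 for the miR-101 list (3 tested), -0.14 for miR-130 and miR-301 (3 tested), -0.03 for miR-103 and miR-107 (2 tested) and 0.01 for miR-221 and miR-222 (2 tested), again with no call. Among their most abundant members, miR-23a had -0.18, miR-26a -0.45, miR-16 -0.14 and miR-103 0.02. The cluster of miR-183, miR-96 and miR-182, known from sensory organs, had a median of -0.31 over 3 members, and the miRNAs of the Hox clusters had 0.09 over 6, with miR-10a as the most abundant. The list of miR-99, miR-100 and miR-125 (6 tested) had a median of 0.19 and ranged from -0.81 for miR-99a to 1.57 for miR-125b-1 (adjusted p = 0.629 and 0.153), and the X-linked list with miR-322, miR-503 and miR-450a (7 tested) had -0.90, led in level by miR-351 at 0.00. These last 2 lists, the Hox list and the miR-183 cluster held no call.

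Without Bbs6-/- library 2, calls were added in 5 of these lists, and miR-25 stayed the only call of its list. Among the miRNAs of the Hox clusters, miR-196b was lower (log2 fold change -0.88, adjusted p = 0.00162), while miR-10b and miR-615 were higher (0.47 and 1.27, adjusted p = 0.0736 and 0.0430). Of the list of miR-99, miR-100 and miR-125, miR-125a was lower (-0.65, adjusted p = 0.00318), and miR-99b, miR-100 and miR-125b-1 were higher (0.56, 0.88 and 1.35, adjusted p = 0.0151, 0.0495 and 0.0334). The uncalled miR-99a changed sign, to 1.00 (adjusted p = 0.189, edgeR). miR-96 and miR-26a were lower (-0.77 and -0.39, adjusted p = 0.0351 and 0.0852), and miR-222 was higher (0.68, adjusted p = 0.0180).

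The WT level, scaled over all 9 libraries and given without a test, lay between the mutants for 13 of the 21 called miRNAs, below both for 7 and above both for 1. miR-34b, miR-34c, miR-298 and miR-194-2 had no count in WT. For miR-181d the mean was 332 CPM in WT beside 46.6 CPM in Bbs4-/- and 410 CPM in Bbs6-/-, and for miR-25 it was, in the same order, 7118, 4013 and 7272 CPM. These put the WT level near that of Bbs6-/-. For miR-29a it was 6106, 6416 and 11932 CPM, and for let-7g 20066, 18180 and 30933 CPM, so that here WT lay near Bbs4-/-. For miR-676, the miRNA above both, it was 242, 26.7 and 174 CPM. By the ratio of means, WT was nearer to Bbs6-/- for 8 of the 17 called miRNAs with a WT count and was placed with Bbs4-/- for 9. These 9 include let-7a-1 and let-7c-2, which are 1 measurement. They also include miR-1943, at 2.85 CPM in WT and 49.0 CPM in Bbs4-/-, whose Bbs6-/- mean of 0 allows no ratio. The tally leaves out miR-34b, miR-34c, miR-298 and miR-194-2, and whether WT leans to either line was not tested.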

How the data were processed

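The authors trimmed reads with cutadapt 1.9, collapsed identical reads with their molecular identifiers and counted miRNAs with miRDeep2, keeping the largest of several entries. The deposited values are counts per miRNA, not normalized. The submitters' processing notes name GRCm38, and the miRBase release is not given in the sources used here. Column numbers of Bbs6-/- (2, 3 and 4) and WT differ from the sample labels, so these columns were used only as replicates of their genotype.

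Counts were tested with edgeR 4.0.16 in R 4.3.3 (TMM, quasi-likelihood test, Benjamini-Hochberg over all 321 miRNAs), using the 6 libraries of both mutants and a minimum total of 6 counts. Standard errors are the log2 fold change divided by the square root of F, and the 95% intervals follow from them. The script was tested on simulated data. Alternatives were DESeq2 1.42.0, its size factors, total counts, other filters, all 9 libraries, robust estimation, an adjusted p under 0.05, merged identical entries, leaving out each library and, added later, a block on column number, which counts of alternatives leave out. Described are all miRNAs called, the 10 most abundant, called and most abundant members of fixed lists, and cluster neighbours within 10 kb. The members and lists were chosen with earlier results of these data known. Uncalled miRNAs outside this rule, such as miR-203, miR-135b, miR-98 and miR-6240, were chosen after their values were seen. Positions are from GENCODE vM21, and figures were drawn with matplotlib 3.10.9.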

Additional observations from a re-analysis of the deposited data

How the results depend on the processing

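Of the 21 calls, 9 (miR-365-2, miR-34c, miR-34b, miR-181c, miR-335, miR-676, miR-298, miR-484 and miR-181a) passed in every alternative run, the block described below included, and none of the 21 changed sign. DESeq2 called 33 miRNAs, 18 of them higher in Bbs4-/-, and no filter gave 32, with 17 higher. Scaling by total count gave 18 higher of 27, and an adjusted p under 0.05 gave 5 higher of 14. The share of higher calls was 42.9% here, 54.5% with DESeq2, 66.7% with total counts and 53.1% with no filter. Total counts raised the median log2 fold change of all miRNAs by 0.25, merging identical entries by 0.15, fitting all 9 libraries by 0.12, and leaving out Bbs4-/- library 2 or Bbs6-/- library 2 by 0.18 and 0.20. Leaving out 1 library gave 13 to 64 calls, 5 to 37 higher, 6 to 27 lower, 8 to 19 of at least 4-fold and 2 to 24 abundant with a smaller change. The extreme high counts all came without Bbs6-/- library 2, and the cause was not tested.

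Signs changed only among miRNAs not called in the full comparison. Only a set of named miRNAs was followed through every fit. Among these, over the fits that left out 1 library, miR-183 ranged from -0.051 to 0.34, miR-365 from -0.87 to 0.077, miR-200c from -0.29 to 0.65, miR-101a from -0.84 to 0.29 and miR-6240 from -0.59 to 1.19. Others changed sign too. Without Bbs6-/- library 2, miR-99a, miR-215, miR-23a, miR-16, miR-92a and miR-30e went from negative values to 1.00, 0.56, 0.06, 0.14, 0.02 and 0.02. With total counts, miR-6240 had 0.0032. The Bbs4-/- and Bbs6-/- columns share the numbers 2 and 3, but the Bbs6-/- numbers are not those of the sample labels, so nothing shows that they pair preparations. Deviations from the line means correlated at 0.08 and 0.15 for the same-numbered libraries and at -0.20 to 0.14 for the others. A block on column number over all 9 libraries, chosen after seeing the data, called 34, with 22 higher and 12 abundant with a smaller change, and held 17 of the 21 (all but miR-1943, miR-29a, let-7a-1 and let-7c-2). Under it the uncalled miR-194, miR-141 and miR-101a changed sign, to 0.10, 1.07 and 0.33, and miR-200c was called higher (1.74, adjusted p = 0.000801). With 3 preparations per line and a median standard error of 1.04 (log2) below 1000 CPM, against 0.23 above it, 2-fold changes of rarer miRNAs were mostly not detectable at this depth. Each mutant was 1 line.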
